A study of Mus musculus with 29 samples.

Results

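The genes described here are 10 members of the Notch pathway, chosen by name. They are the receptors Notch1, Notch2 and Notch3, the ligands Jag1, Jag2 and Dll1, and the target genes Hes1, Hey1, Heyl and Nrarp. All 10 were found among the 35199 genes of each table used. Notch receptors sit in the cell membrane and bind Jagged and Delta-like ligands on a neighboring cell. Binding exposes the receptor to an ADAM protease and then to γ-secretase, and the freed intracellular domain joins Rbpj and a Mastermind-like protein in the nucleus, where it switches on Hes and Hey genes. In stratified epithelia the pathway is known for its part in the step from basal cell to differentiated cell, and inactivating changes of pathway genes occur in bladder cancer.

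RNA-seq of mouse urothelium, the lining of the bladder, was measured in sorted cells and in laser-captured tumor tissue. The mutants, labelled K5VP16;Pparg+/-, carry VP16;Pparg, a Pparg fused to the VP16 activator that needs no ligand. It lies in the Rosa26 locus and is switched on by a tamoxifen-inducible Cre under the Krt5 promoter, thus in basal cells. Gfp+ cells were sorted 4 days after tamoxifen from 4 control and 5 mutant libraries, from mice that were 8 to 12 weeks old at induction and had received no carcinogen. The labels list the controls as wild type, whereas the study describes K5;mTmG mice as controls of its sorts. These carry the same Cre and the membrane Gfp reporter. The study describes the sorted mutants as K5VP16;Pparg;mTmG, thus with that reporter too, and its VP16;Pparg allele also encodes an EGFP. Tumors came from mice of the same age at induction, 8 to 12 weeks, given 0.05% N-butyl-N-(4-hydroxybutyl)-nitrosamine (BBN), a bladder carcinogen, in drinking water, labelled as 5 months of BBN with titles that name 4 months, the time the study counts from tamoxifen. They are 3 basal tumors of controls, 3 luminal tumors of mutants, and 3 luminal domains and 3 basal-like domains of mutant lesions, which the labels call the top and the bottom of a luminal tumor. The study names both VP16;Pparg fl/fl and K5;mTmG mice as tumor controls, and the labels, which say wild type, do not settle which. Neither the labels nor the study's methods tie a captured region to an animal, so p-values are too small where regions of a group share an animal, and take no account of an animal or lesion shared across the groups compared, as may hold for the domains. Nothing states that the numbered replicates of the sorted cells are separate mice, and p-values there measure the spread between libraries.

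Normalized counts summed to 36520193 to 41435665 per library in the 4-day table, 41697178 to 53252995 in the tumor table of 8 libraries and 42985095 to 53904714 in the table of both domains. How many reads stand behind a value is not known, because these are normalized estimates. In the sorted cells the basal keratin Krt5 ran from 62918 to 109570 normalized counts, and Upk1a, a uroplakin of the luminal surface, from 66833 to 128420, so both kinds of marker were abundant in every Gfp+ library. The 11 endothelial markers summed to 831 to 2801 in controls and 983 to 4345 in mutants, with 4 of 7 tested higher and 0 called, although their cadherin Cdh5 was listed at 0 in 4 of 4 controls and 4 of 5 mutants. In the tumor table Upk2 lay between 10.8 and 121 in basal tumors and between 3492 and 60114 in luminal tumors. One luminal domain, library CT143, held 1193 normalized counts of Upk1a against 64151 in luminal domain CT128. Libraries are named as in the column headers, which do not say which replicate number a library has. In bulk tissue, fewer cells of a type and less RNA per cell cannot be told apart.

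The 3 ligands lay lower together in mutant cells at 4 days, and the sequence upstream of their starts is shown for that reason. RefSeq windows on GRCm38.p6, from 250 bases before the start up to it, were matched for 7 of the 10 members, with 8 windows because Dll1 has a pair. In GENCODE M21 on the same build, the genes lie at chr2:137081456-137116644 (Jag1), chr12:112907819-112929776 (Jag2) and chr17:15367354-15376872 (Dll1), all on the minus strand. The stretches printed below lie upstream of every GENCODE M21 transcript of their gene, at chr2:137116645-137116770 for Jag1 and chr17:15376933-15377182 for Dll1. Both are read on the minus strand, 5′ to 3′, with each CG dinucleotide in capitals.
Jag1: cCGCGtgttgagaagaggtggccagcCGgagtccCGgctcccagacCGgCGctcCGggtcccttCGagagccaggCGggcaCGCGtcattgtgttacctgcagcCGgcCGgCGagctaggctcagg
Dll1: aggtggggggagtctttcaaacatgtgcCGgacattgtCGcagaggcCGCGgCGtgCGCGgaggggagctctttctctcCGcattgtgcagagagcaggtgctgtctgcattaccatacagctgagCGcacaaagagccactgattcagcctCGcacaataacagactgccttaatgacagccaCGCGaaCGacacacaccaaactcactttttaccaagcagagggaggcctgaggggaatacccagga
Of these, the Jag1 stretch has 126 bases with 14 CG dinucleotides, and the Dll1 stretch has 250 bases with 13. The median window of 250 bases holds 6. The Jag2 window, at chr12:112929496-112929745, lies within the transcript that GENCODE gives and is described by composition only. It holds 54 CG dinucleotides and is 87.2% G or C, against a median of 52.4%, and 3 of 32851 windows hold more CG dinucleotides. The letters TGGGAA, the core that Rbpj recognizes, were searched on both strands and stood in 0 of the 8 member windows and in 21.6% of all windows. The letters AGGTCA, the half-site of many nuclear receptors, stood in 1 of the 8, the other Dll1 window, and in 14% of all. These are descriptions of letters and show no binding.

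At 4 days, 2 of the 3 ligands, Jag2 and Dll1, stood in K5VP16;Pparg cells at about 0.47 and 0.51 of the control level. The remaining ligand, Jag1, lay lower in every mutant library without passing the test. Genotype nearly coincided with the level of Y-linked genes, as given below. No receptor and no target gene was called. In limma with Benjamini-Hochberg adjustment over 16413 genes, 2 of the 9 members tested had an adjusted p under 0.05, both lower, against 2.85% of all genes called and 1.08% called lower. All 3 ligands had groups that did not overlap, mutants below controls, as did 4.51% of all genes in that direction. The median log2 fold change was -0.97 over the ligands, -0.23 over the 9 members tested and 0.0045 over all genes.

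Jag2, a ligand of the Jagged family, had normalized counts of 15211, 21266, 20761 and 19554 in controls CT063, CT065, CT066 and CT067. In mutants CT070, CT071, CT074, CT076 and CT078 it had 5960.2, 8501, 7905, 12633 and 11149. Every mutant lay below every control, and the lowest control was CT063. The log2 fold change was -1.09 ± 0.21 (SE), with a 95% interval from -1.56 to -0.63 and an adjusted p of 0.0269 in limma. Of the tested genes, 2.14% had an equal or lower log2 fold change.

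Dll1, a Delta-like ligand, had 985, 1146, 1438 and 1650.4 normalized counts in the same controls. The mutants, in the same order, had 460.4, 841, 610.0, 841 and 588. The highest mutant lay below the lowest control, again CT063. The log2 fold change was -0.97 ± 0.22 (SE), the 95% interval ran from -1.46 to -0.49, and the adjusted p in limma was 0.0447, close to the threshold.

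Jag1, which like Jag2 binds Notch receptors with a DSL domain, had 5287, 6283, 5558 and 5789 normalized counts in controls and 2731, 4131, 2984, 4468 and 4799 in mutants. These groups did not overlap either. Its log2 fold change of -0.62 ± 0.17 (SE), with a 95% interval from -1.00 to -0.24, had an adjusted p of 0.0821 in limma and was not called. With limma's array weights it was called, at an adjusted p of 0.0480, in a fit that called 1054 genes in place of 467.

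**Figure D1:**
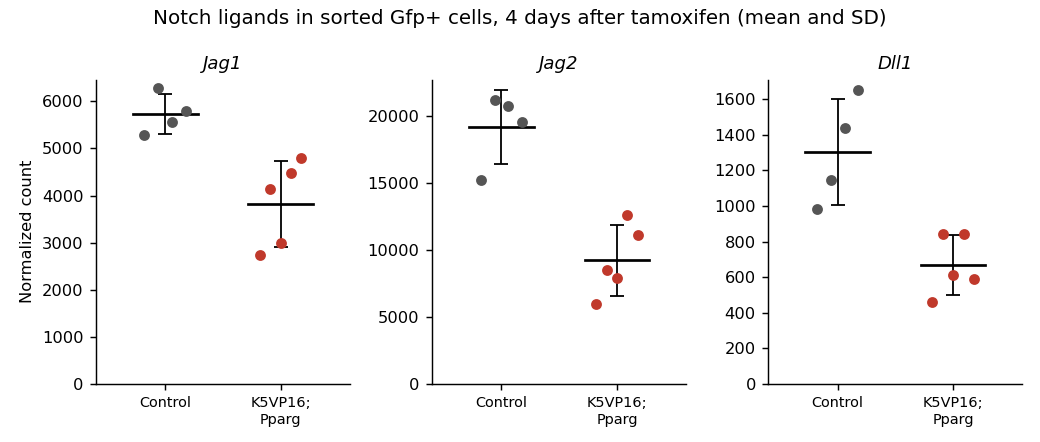
Normalized counts (y axis, from 0) of Jag1, Jag2 and Dll1 in 4 control and 5 K5VP16;Pparg libraries of sorted Gfp+ cells at 4 days, with points for libraries and lines for the mean and SD. In each panel all 5 mutant points lie below the lowest control point.

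The ligand calls depended on single libraries. The call of Jag2 was kept in 5 of 9 fits without 1 library and that of Dll1 in 3 of 9, with log2 fold changes from -1.22 to -0.95 and from -1.10 to -0.85. The Jag2 call was lost without CT065, CT066, CT067 or CT074, and the Dll1 call also without CT070 or CT078. Limma's eBayes without a trend also lost both (0.0534 and 0.0713), and testing without a filter on low values lost Dll1 (0.0512). In a smaller 4-day table of 3 against 3 libraries Jag2 was called and Dll1 was not. Library CT063 stands apart from the other controls in the Y-linked genes Ddx3y, Eif2s3y, Kdm5d and Uty, whose summed normalized counts were 404.5 in CT063, 9030.2 to 9177 in the other 3 controls and 338 to 395 in the mutants. The Y-linked level and the genotype thus nearly coincide, and without CT063 they cannot be told apart. CT063, the control with a Y-linked level near that of the mutants, was the lowest control for Jag1, Jag2 and Dll1. It lay above every mutant for each of them. With the Y-linked level as a covariate in limma, Jag2 had a log2 fold change of -0.83 and Dll1 one of -0.67, neither was called (adjusted p 0.503 and 0.617), and 25 genes were called in all.

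Most genes of several other marker lists had higher means in the mutants, although few were called. The 11 mural cell markers summed to 697 to 1693 normalized counts in controls and 2144 to 4447 in mutants, with 11 of 11 higher and 0 called. The 10 fibroblast markers summed to 12291 to 89349 in controls and 32120 to 226110 in mutants, with 9 of 9 tested higher and 1, Lum, called. Of the luminal markers, 9 of 11 were higher and 1, the keratin Krt20, was called. The basal markers were split, with 4 of 8 tested higher, Cd44 called higher and the hemidesmosomal collagen Col17a1 called lower. The 6 cycling markers summed to 2844 to 6183 in controls and 3792 to 19322 in mutants, with 6 of 6 higher and 0 called. The 8 genes of dissociation and stress summed to 30775 to 47501 and 40898 to 70457, with 7 of 8 higher and 1, the early response gene Egr1, called. Of the immune markers, 3 of 9 tested were higher and 6 lower, with 0 called. The part of these lists in the ligand result was not tested.

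The receptors showed no difference that passed the test at 4 days. Notch1 had 24951, 16443, 16261 and 12001 normalized counts in controls and 16182, 21337, 16707, 20008 and 18577 in mutants. The mutants lay within the range of the controls. The log2 fold change was 0.13 ± 0.19 (SE), and its 95% interval ran from -0.29 to 0.55. Notch2 lay between 2572 and 2977 in controls and between 2036 and 3293 in mutants, with a log2 fold change of -0.044 and an interval from -0.38 to 0.29. Notch3 lay between 1687 and 2080.3 in controls and between 1604 and 2352 in mutants, with a log2 fold change of 0.083 and an interval from -0.20 to 0.37. Changes beyond 0.55 on the log2 scale thus lay outside the intervals of all 3 receptors in this fit. With the Y-linked covariate Notch1 stood at -0.47.

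Among the targets, Hes1, a basic helix-loop-helix repressor and a classic Notch target, had 7490.3, 10142, 6677 and 8710.4 normalized counts in controls. In mutants it had 4909, 7513, 4765, 7675 and 6785. The groups overlapped, although 2 mutants, CT070 and CT074, lay below every control. The log2 fold change was -0.40 ± 0.18 (SE), with an interval from -0.80 to 0.01 and an adjusted p of 0.254 in limma. Nrarp, a Notch-induced ankyrin-repeat protein that dampens the pathway, had 2886 to 8397 among controls and 2728 to 5416 among mutants. Its log2 fold change of -0.23 had a wide interval, from -0.99 to 0.53, and was -1.12 with the Y-linked covariate. Hey1 and Heyl, Hes-related repressors, were near the bottom of the scale. Hey1 lay between 2.72 and 11.997 in controls and between 2.20 and 27.996 in mutants (log2 fold change 0.39, interval from -1.02 to 1.80, 1.58 with the Y-linked covariate). Heyl reached at most 8.32, was listed at 0 in 2 controls and 3 mutants, and was not tested.

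**Figure D2:**
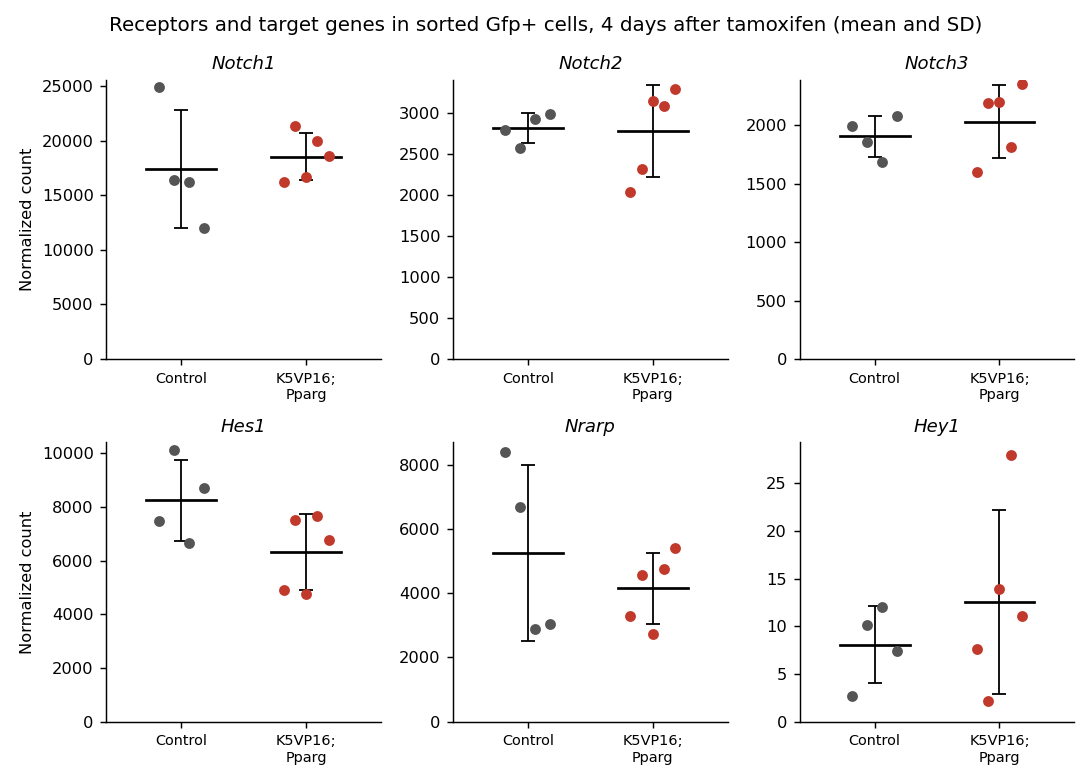
Normalized counts (y axis, from 0) of the 3 receptors and of Hes1, Nrarp and Hey1 in 4 control and 5 mutant libraries at 4 days, with points for libraries and lines for the mean and SD. The groups overlap in all 6 panels, and Hey1 stays at or below 27.996 normalized counts.

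Of 60 further pathway genes, 54 were tested at 4 days and 2 were called, both lower, again beside 1.08% of all genes. Dlk2, a Delta-like protein without the domain that activates receptors, had 3057.5, 3142, 1903 and 2051 normalized counts in controls and 1029, 1493, 606, 432 and 1117 in mutants. It did not overlap, with a log2 fold change of -1.54 ± 0.34 (SE) and an adjusted p of 0.0460 in limma. Maml2, a Mastermind-like coactivator of the nuclear complex, averaged 1649 in controls and 1040 in mutants (log2 fold change -0.66 ± 0.14, adjusted p 0.0390). Alternatives are reported for the 10 members only, so how these 2 calls fare under them is not given. None of the 15 genes of receptor glycosylation and cleavage was called, 10 of them higher and 5 lower. The same was so for the 15 tested genes of ubiquitin, endocytosis and antagonists, 8 higher and 7 lower, and for the 3 other targets tested, all lower. Over all 54 the median log2 fold change was -0.034.

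In the tumors, 9 of the 10 members had a lower mean log2 level in luminal than in basal tumors, but only Hey1 was called. The 3 groups of the table of 8 libraries were fitted together, and 1 of 10 members had an adjusted p under 0.05 in limma, against 2.2% of 15357 genes called and 0.938% called lower. Jag1, Notch1 and Hey1 had groups that did not overlap, luminal tumors below basal tumors, as did 11.6% of all genes in that direction. The median log2 fold change was -1.90 over the members and -0.11 over all genes. Upper-quartile scaling moved the latter to -0.32 and quantile normalization to 0.021.

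Hey1 had 151, 279 and 440.5 normalized counts in basal tumors CT111, CT113 and CT115. It was listed at 0 in all 3 luminal tumors, CT126, CT132 and CT140. The 2 luminal domains of the same table had 53.7 and 166, above the luminal tumors, and the higher of them lay within the range of the basal tumors. The adjusted p in limma was 0.0218, and no fold change is given against a group listed at 0. An exact 0 can be a failed estimate. Among genes that reached 100 normalized counts in every other library, 8 of 8643 were listed at 0 in CT126, 6 of 8667 in CT132 and 5 of 8601 in CT140, against 1 to 4 in each basal tumor. Hey1, at 0 in all 3 luminal tumors, cannot be among those genes. The counts thus do not say whether its values of 0 are failed estimates. The call was lost without CT111, CT115, CT126 or CT132, where the adjusted p ran from 0.0501 to 0.0775, and it held in the other 4 fits without 1 library. Testing without a filter on low values (0.0547) and pooling luminal tumors with luminal domains (0.150) also ended it.

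Jag1 had 4068.5, 3431 and 2303 normalized counts in basal tumors and 979, 900.4 and 360.4 in luminal tumors. Every luminal tumor lay below every basal tumor, and the luminal domains, at 1193 and 1899, lay between them. The log2 fold change was -2.22 ± 0.49 (SE), with an interval from -3.31 to -1.12 and an adjusted p of 0.0529 in limma, just above the threshold. It was called with a pseudocount of 5 (0.0471), with upper-quartile scaling (0.0441) and without CT140 (0.0470).

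Notch1 had 1054, 6259.9 and 2399 normalized counts in basal tumors and 959.6, 1024 and 323 in luminal tumors. The groups did not overlap, but the lowest basal tumor and the highest luminal tumor nearly met. Its log2 fold change of -1.88 ± 0.78 (SE) had an adjusted p of 0.239 in limma. Notch2 lay between 592 and 883 in basal tumors and between 75.5 and 634 in luminal tumors, where the low value was that of CT140. Notch3, a receptor known from vascular mural cells, lay between 516 and 1763 in basal tumors and between 198 and 729.8 in luminal tumors. Both overlapped between groups, with log2 fold changes of -1.34 and -1.32 and adjusted p of 0.444 and 0.341. Without 1 library Notch2 ran from -1.89 to -0.36 and Notch3 from -1.81 to -0.85.

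The other ligands split within groups. Jag2 had 748, 2090 and 1915 normalized counts in basal tumors, and 312, 83.6 and 2080.5 in luminal tumors. CT140 thus held as much Jag2 as the basal tumors, and the other luminal tumors lay below all of them. Its marker sums were also the highest of the luminal tumors for basal cells (304160 against 89436 in CT126 and 18241 in CT132), fibroblasts (19620 against 1115 and 234) and cycling (28763 against 7192 and 8850). Without CT140, the members called were Jag1, Jag2, Hey1 and Heyl, 4 in place of 1, while the genes called rose from 338 to 896 over all genes and from 144 to 550 among those lower. Dll1 had 1043, 923 and 22.6 in basal tumors and 40.7, 254 and 3.31 in luminal tumors, with one basal tumor, CT115, among the low values. The log2 fold changes were -1.92 ± 1.01 (SE) for Jag2 and -2.99 ± 1.80 for Dll1, with adjusted p of 0.354 and 0.417. Jag2 stood at -0.84 without CT132 and -3.15 without CT140, and Dll1 at -1.46 without CT140 and -4.78 without CT115.

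Heyl had 436, 128 and 189 normalized counts in basal tumors and 0, 0 and 299.6 in luminal tumors, with CT140 again apart. Its log2 fold change, -5.04 ± 2.12 (SE) and not called (adjusted p 0.248), depends on the pseudocount because of the values listed at 0, and was -3.51 with a pseudocount of 5. Hes1 lay between 8373 and 16021 in basal tumors and between 7486 and 26377 in luminal tumors, with a log2 fold change of 0.14 and an interval from -0.91 to 1.20. Its sign turned with quantile normalization and upper-quartile scaling. Nrarp ran from 1057 to 4117 and from 1273 to 3504, with a log2 fold change of -0.27 and an interval from -1.54 to 0.99. Hes1 and Nrarp were thus the members whose mean log2 levels lay closest together.

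Cell type markers differed between the same tumors. The basal markers were lower in luminal tumors for 9 of 9 with 3 called, and the luminal markers higher for 11 of 11 with 6 called, with medians of -2.34 and 6.79 on the log2 scale. The 10 fibroblast markers summed to 47435 to 80198 normalized counts in basal and 234 to 19620 in luminal tumors, with 10 of 10 lower and 3 called. The 11 mural cell markers summed to 8801 to 50328 and 3592 to 10398, with 10 of 11 lower and 5 called. The 11 endothelial markers summed to 3697 to 5158 and 669 to 3951, with 10 of 10 tested lower and 1 called. Pdgfrb, a receptor of mural cells and fibroblasts, was listed at 0 in CT126 and CT132, in which Heyl was also at 0, and had 19.6 in CT140 against 368 to 1131 in basal tumors. Of the immune markers, with sums of 30296 to 141880 in basal and 857 to 11101 in luminal tumors, 9 of 10 tested were lower and 0 called. The cycling markers summed to 30592 to 45273 and 7192 to 28763, with 6 of 6 lower and 1 called. The part of these cells and of cycling in the values of Hey1, Heyl, Notch3 and the other members was not tested.

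**Figure D3:**
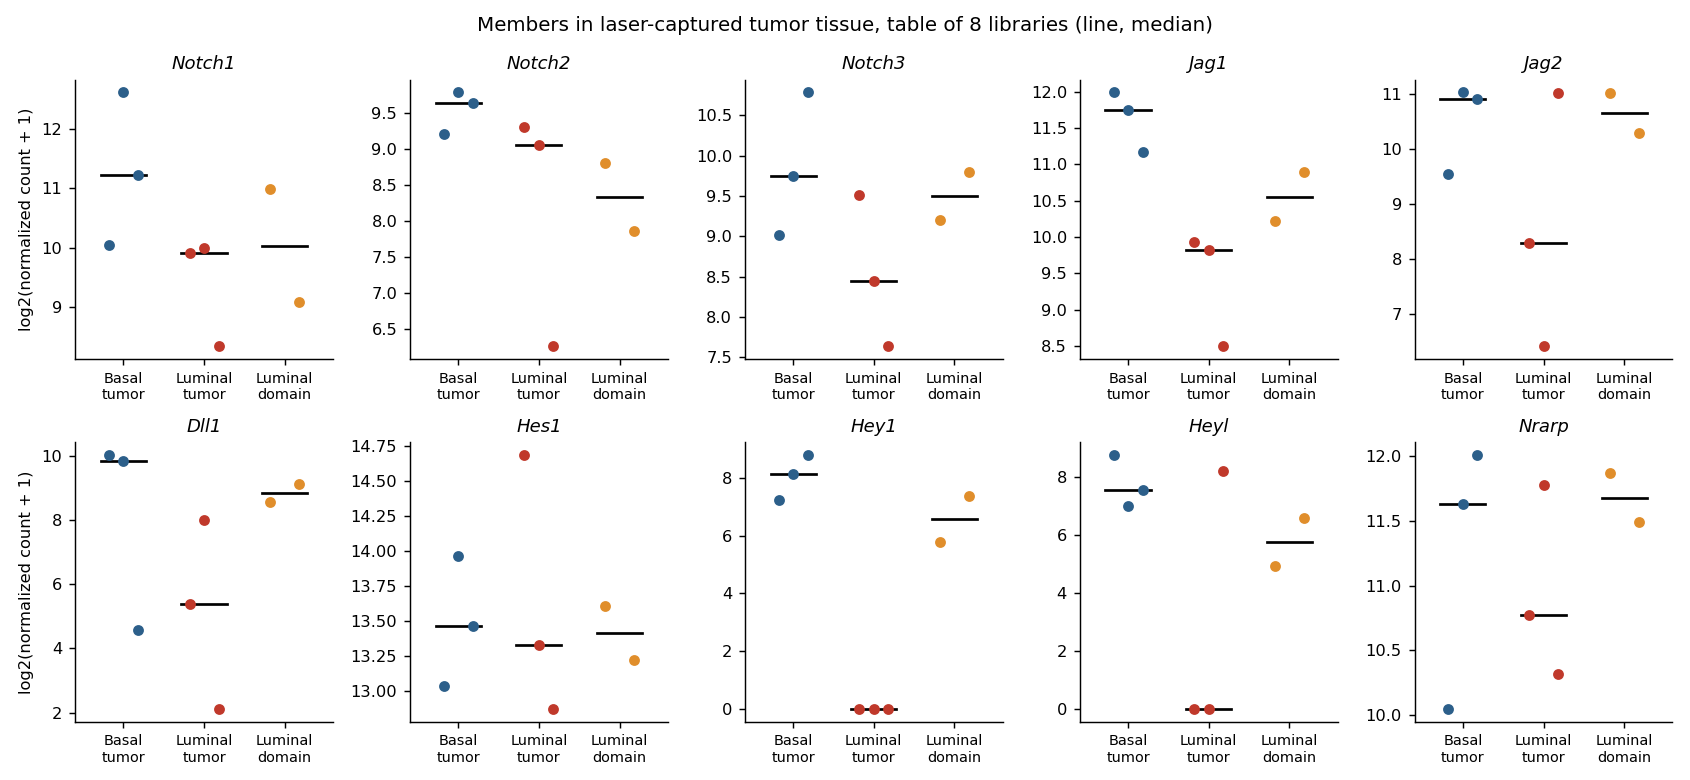
Levels of the 10 members as log2(normalized count + 1) (y axes differ between panels, and most do not start at 0) in 3 basal tumors, 3 luminal tumors and 2 luminal domains, with points for libraries and lines for medians. Hey1 is at 0 in the 3 luminal tumors, and Jag1 separates basal from luminal tumors without overlap.

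Of the 60 further genes, 53 were tested between luminal and basal tumors and 0 were called in limma, with 8 at an unadjusted p under 0.05. Of all genes, 18.4% had such a p. The lists of the pathway had 24 genes higher and 29 lower, with a median log2 fold change of -0.23.

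The luminal domains of mixed lesions were also compared with the basal tumors, in a table of 6 libraries of its own. The basal tumors are the same 3 as above, so the comparisons share them. In limma 0 of 10 members were called, against 2.53% of 14921 genes, and 3 members (Notch2, Jag1 and Heyl) had an unadjusted p under 0.05, as did 20.6% of all genes. These 3 also had groups that did not overlap, lower in luminal domains, which held for 12.8% of all genes.

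In this table Jag1 had 4275, 3535 and 2393 normalized counts in basal tumors and 1272, 2051.5 and 1509 in luminal domains CT128, CT143 and CT148, all below the basal tumors. Its log2 fold change was -1.07 ± 0.35 (SE), with an interval from -1.87 to -0.26 and an adjusted p of 0.147. Notch2 had 623, 912 and 828 in basal tumors and 479, 249 and 302 in luminal domains. The log2 fold change of Notch2 was -1.23 ± 0.52 (SE), with an adjusted p of 0.232.

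Heyl had 461, 132 and 197 normalized counts in basal tumors and 31.5, 105 and 13.9 in luminal domains (log2 fold change -2.63 ± 1.10, adjusted p 0.226). The gap between the groups was narrow, from 132 to 105. Jag2 stood at 0.30 on the log2 scale, with an interval from -0.78 to 1.38. Dll1 had 1314, 1141 and 28.2 normalized counts in basal tumors and 480.2, 723 and 329 in luminal domains, so the domains lay below CT111 and CT113 and above CT115. Its log2 fold change of 0.46 (from -2.74 to 3.67) had the opposite sign to the difference of the mean counts, 511 in domains and 828 in basal tumors, and was -1.33 without CT115. Hes1 stood at -0.10 (from -0.80 to 0.59) and Nrarp at 0.28 (from -0.92 to 1.48). Hey1, at 57.6 to 180.5 in luminal domains and 159 to 460.4 in basal tumors, overlapped and had a log2 fold change of -1.64 with an adjusted p of 0.340. Notch1 and Notch3 overlapped too, at -1.11 and -0.35. Without 1 library Notch1 ran from -1.73 to -0.46. Of the further genes, 0 of 53 tested were called and 4 had an unadjusted p under 0.05. The fibroblast markers summed to 5888 to 33376 in luminal domains and 48875 to 82976 in basal tumors, with 9 of 9 tested lower and 1 called, and the mural markers to 5279.5 to 21214 and 9389 to 53210, with 10 of 11 lower and 3 called. The cycling markers summed to 9445 to 12195 in luminal domains and 32763 to 49202 in basal tumors, with 6 of 6 lower and 3 called. Of the basal markers 9 of 9 were lower and 1, the integrin Itga6, called, and of the immune markers 7 of 10 tested were lower and 0 called. The luminal markers were higher in luminal domains for 11 of 11 with 3 called, with a median of 6.28 on the log2 scale. The endothelial markers were higher for 7 of 10 tested and the genes of dissociation and stress for 6 of 8, with 0 called. The part of these lists in the values of Jag1, Notch2 and Heyl was not tested.

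Luminal domains and luminal tumors, both of mutant mice, could be set against each other in the fit of 8 libraries, with 2 domains against 3 tumors. In limma 0 of 10 members and 0% of 15357 genes were called, and 723 genes, or 4.71%, had an unadjusted p under 0.05, with Hey1 the 1 member among them. The domains had the higher mean log2 level for 9 members, all but Hes1. Mean normalized counts went the other way for Heyl (62.9 in domains, 99.9 in luminal tumors) and Notch2 (339 and 413). For Jag1, Dll1 and Hey1 the domains lay above every luminal tumor, as for 10.9% of all genes. Dll1 had 376 and 558 normalized counts in the domains, and its log2 fold change of 3.68 ± 2.02 (SE) had an adjusted p of 0.982 and was 2.15 without CT140. That of Jag1 was 1.14 ± 0.55, with the same adjusted p. In the same fit the endothelial markers summed to 3835 to 6265 in the domains and 669 to 3951 in the luminal tumors, with 10 of 10 tested higher and 0 called. The mural markers were higher for 10 of 11, the fibroblast markers for 8 of 10 and the basal markers for 9 of 9, with medians of 2.85, 2.90 and 1.32 on the log2 scale and 0 called. The immune markers were higher for 9 of 10 tested and the genes of dissociation and stress for 7 of 8, with 0 called. The luminal markers were higher for 5 of 11 and the cycling markers for 3 of 6, also with 0 called. The part of these lists in the members' values was not tested.

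Basal-like and luminal domains of mixed lesions were compared to ask whether the pathway differs within such lesions. In limma 0 of 10 members were called, and the background was 0% of 14874 genes. At an unadjusted p under 0.05 there were 757 genes, or 5.09%, and 1 member, Heyl. Heyl had 32.0, 108 and 14.2 normalized counts in luminal domains CT128, CT143 and CT148, and 0, 11.8 and 0.94 in basal-like domains CT129, CT144 and CT149. All basal-like domains lay below the luminal ones, as for 5.14% of genes, and the log2 fold change was -3.70 ± 1.48 (SE) with an adjusted p of 0.935. It was -2.44 with a pseudocount of 5 and -2.93 to -4.77 without 1 library. The mural markers summed to 5295 to 20874 in luminal domains and 5151 to 20927 in basal-like domains, with 7 of 10 tested higher in the latter. The fibroblast markers summed to 6130 to 34462 and 15231 to 113350, with 9 of 9 tested higher, and the cycling markers to 9728 to 12535 and 18129 to 26667, with 6 of 6 higher. The genes of dissociation and stress were lower in basal-like domains for 7 of 8 and the endothelial markers for 6 of 10 tested. The immune markers were split, with 5 of 10 tested higher in basal-like domains and 5 lower. None of these genes was called, and their part in the Heyl values was not tested.

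Hey1, in the same order, had 59.1, 188 and 68.1 normalized counts in luminal domains and 32.9, 129.5 and 0 in basal-like domains. The groups overlapped, and the interval of its log2 fold change, -2.49, ran from -6.61 to 1.64. Without CT149, in which Hey1 was listed at 0, it was -0.47, and without CT144 -3.99. Notch1 had 2169, 601 and 1427 in luminal domains and 3545, 2156 and 1367 in basal-like domains, a log2 fold change of 0.83 with an interval from -0.41 to 2.07. Without 1 library that of Notch1 ran from 0.31 to 1.24. The other 7 members had log2 fold changes between -0.15, for Nrarp, and 0.52, for Dll1. Jag1 stood at 0.038 (from -0.70 to 0.78), Jag2 at -0.016 (from -0.71 to 0.68) and Hes1 at -0.0069 (from -0.64 to 0.63), so these 3 intervals lie between -0.71 and 0.78. Of the further genes, 0 of 54 tested were called and 1 had an unadjusted p under 0.05.

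**Figure D4:**
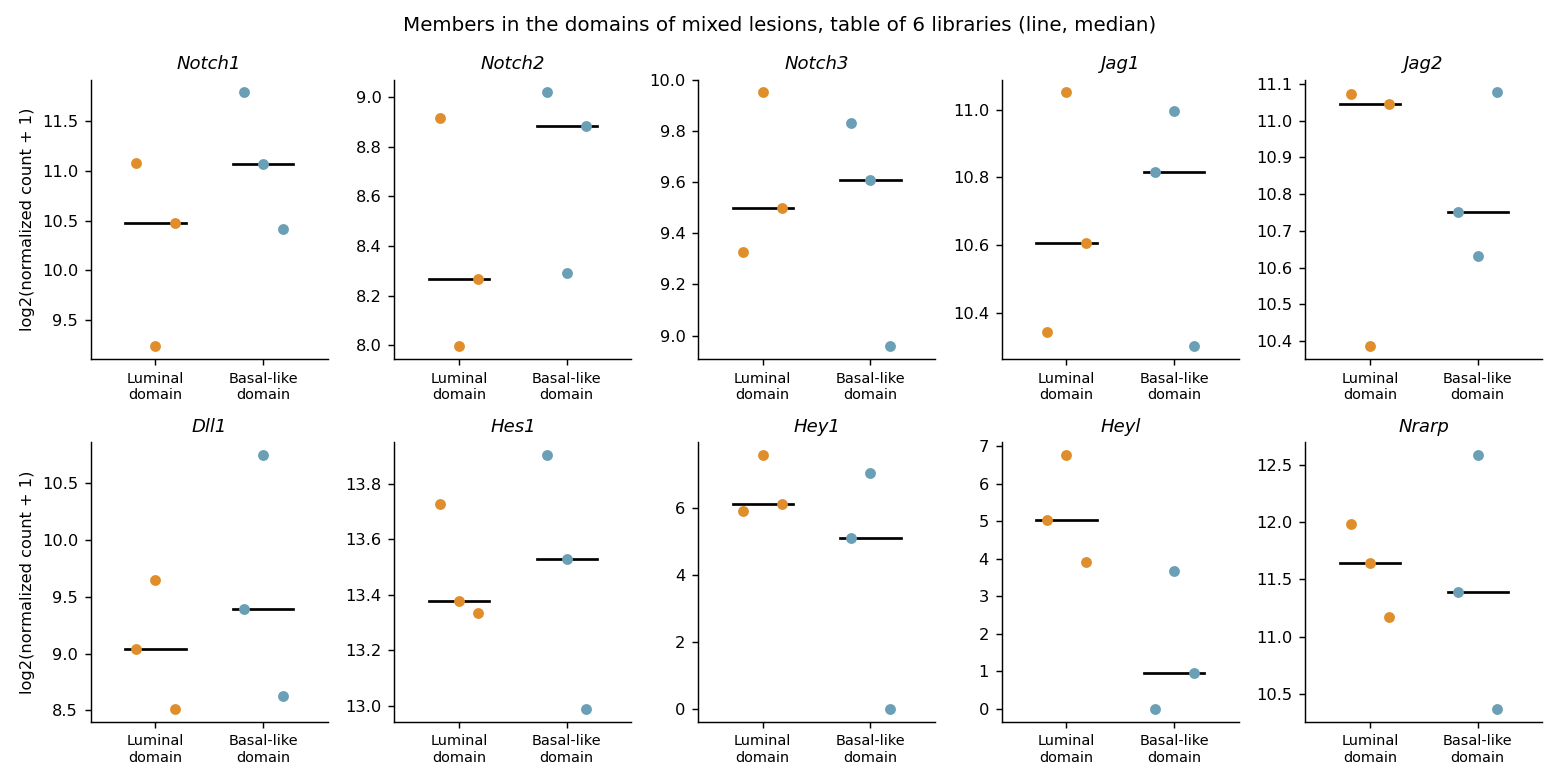
Levels of the 10 members as log2(normalized count + 1) (y axes differ between panels, and most do not start at 0) in 3 luminal and 3 basal-like domains, with points for libraries and lines for medians. Only the Heyl panel has no overlap, with the basal-like domains below.

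The luminal markers, 11 of 11, and basal markers, 9 of 9, were lower and higher in basal-like domains, with 0 called. Their summed normalized counts overlapped, from 57498 to 195230 against 167430 to 667320 for luminal markers and from 285480 to 533010 against 203750 to 315520 for basal markers.

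The log2 fold changes of the ligands are set side by side here as a description. Jag1 was at -0.62, -2.22, -1.07 and 0.038 on the log2 scale, for mutant against control, luminal against basal tumor, luminal domain against basal tumor and basal-like against luminal domain. Jag2 was at -1.09, -1.92, 0.30 and -0.016, and Dll1 at -0.97, -2.99, 0.46 (-1.33 without CT115) and 0.52. For luminal domain against luminal tumor the values were 1.14 for Jag1, 2.08 for Jag2 and 3.68 for Dll1. Without 1 library these ran, in the same order, from 0.68 to 1.48, from 0.99 to 3.30 and from 2.15 to 5.10. The comparisons with basal tumors share those tumors, those with luminal domains share domains, and differences between comparisons were not tested.

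**Figure D5:**
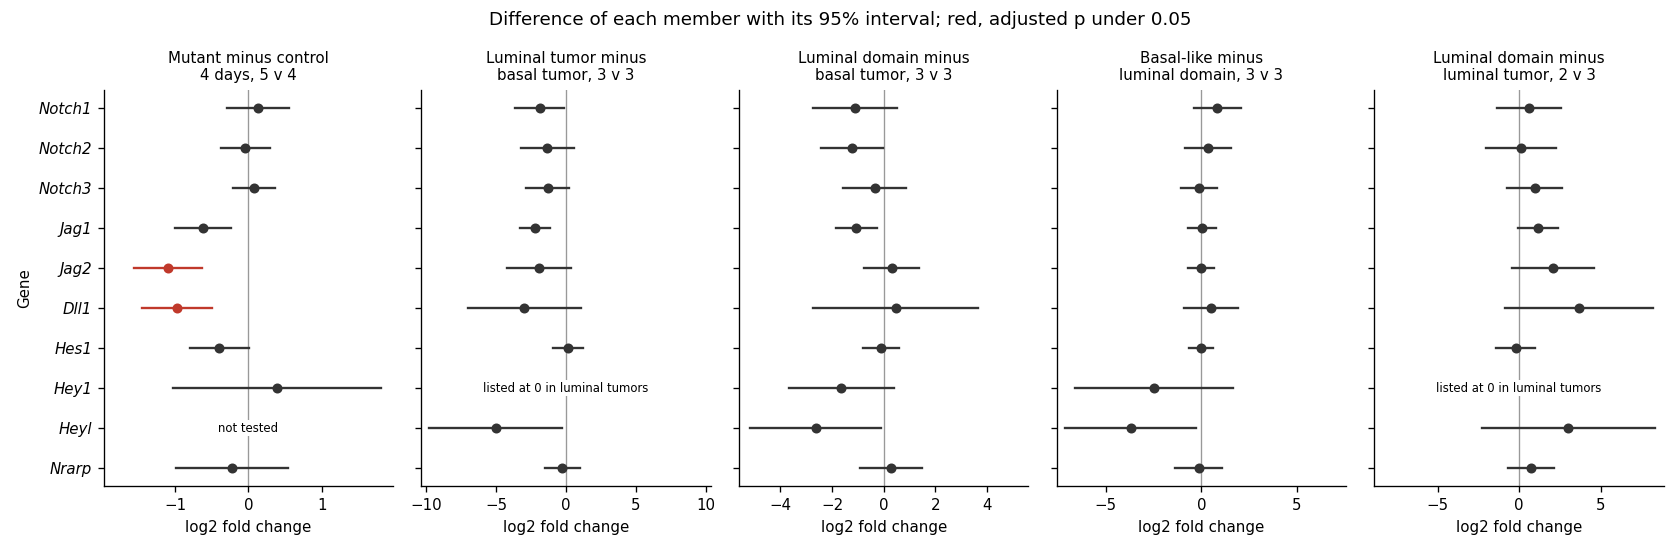
Log2 fold change (x axis, scale differs between panels) of the 10 members with its 95% interval in 5 comparisons, from limma on log2(normalized count + 1). Jag2 and Dll1 at 4 days are in red as called, Hey1, called between luminal and basal tumors, has no value where the luminal tumors are listed at 0, and the intervals of the tumor comparisons are wider than those at 4 days.

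The genes whose levels followed a member most closely were found by the smaller of its Pearson r over the 9 sorted and the 8 tumor libraries, among 14247 genes. For Jag2 they were Bcam (0.956 and 0.941), Fkbp9 (0.914 and 0.901) and Robo1 (0.900 and 0.936), Bcam being a laminin-binding adhesion molecule. For Dll1 they were Pnisr (0.926 and 0.891), Spata1 (0.886 and 0.884) and Satb1 (0.883 and 0.891), and for Jag1 Rbm26 (0.856 and 0.880), Olfr188-ps1 (0.897 and 0.850) and Zbtb1 (0.841 and 0.858). For Hey1 they were Synpo (0.947 and 0.891), Clic4 (0.905 and 0.889) and Vmn1r-ps128 (0.857 and 0.867). Hey1 itself ran only from 2.20 to 27.996 normalized counts in the sorted cells and was at 0 in the luminal tumors. For Notch1, Impg2 came closest with 0.828 and 0.879, for Notch2 Olfr45 with 0.882 and 0.899, and for Notch3 Pou2f2 with 0.767 and 0.899. For Hes1 it was Usp7 with 0.816 and 0.813, and for Nrarp Arhgap32 with 0.766 and 0.859. The libraries share their groups and normalization, and the genes were picked as the closest of 14247 over few libraries. High values of r are thus partly a result of the picking, and they describe likeness of levels only.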

How the data were processed

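RNA-seq libraries (SMART-Seq v4, Nextera XT) were quantified by the authors with kallisto 0.44.0, summed to genes with tximport and normalized within each table with DESeq2 1.18, and the deposited signal values are the resulting normalized counts. The index is not given in the sources used here. Whole reads could not be recovered (10.7% to 53.5% of low values lay within 0.02 of one). Levels were compared within a table only. The authors' lists of fold changes and p-values were not used.

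Libraries were grouped by the table names in their labels. The 8 columns with and without 1 month of BBN were not used, because nothing said which are which. Genes reaching 10 normalized counts in 4 libraries (4-day) or 3 (tumors) were tested with limma 3.58.1 (R 4.3.3), using lmFit and trended eBayes after adding 1 and taking log2, which makes changes of low genes look smaller, with Benjamini-Hochberg adjustment over all genes at 0.05. Every member was named, and of the further pathway genes those called. Members and lists were chosen with earlier results of these data known. In simulated 4-day data of 16413 genes, 53.7% of changes of 1 on the log2 scale were called. For luminal against basal tumors (15357 genes) it was 0% of changes of 1, 2.99% of changes of 2 and 36.4% of changes of 3. Of the simulated calls, 5.19% of 154 were false at 4 days and 16.1% of 31 between these tumors. Each simulation changed 200 genes, with independent normal noise. In the data 20.8% of genes at 4 days and 18.4% between these tumors had an unadjusted p under 0.05 in limma. The adjustment thus worked on unlike sets of p-values, and the shares are not recovery or error rates of the reported fits. Alternatives were other filters, pseudocounts, eBayes settings, weights, scalings and tables, a Y-linked covariate, and each library left out. Figures used Python 3.11.15 and matplotlib 3.10.9.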

Additional observations from a re-analysis of the deposited data

How the results depend on the processing

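Of 848 log2 fold changes of members recomputed under alternatives, 773 kept their direction and their side of the threshold, 22 lost a call, 6 gained one and 47 changed sign. Most of these were not called in the reported fit, so only Jag2, Dll1 and Hey1 had a call to lose. Without 1 library Jag2 lost it in 4 of 9 fits, Dll1 in 6 of 9 and Hey1 in 4 of 8. Under the other alternatives they lost it in 2, 4 and 2 of 11. At 4 days, 2 members were called in the reported fit, 1 without a filter on low values or in the smaller table of 3 against 3 libraries (Jag2 in both), 0 with eBayes without a trend or with the Y-linked covariate, 3 with array weights (Jag1 added), and from 0 to 2 without 1 library. Over all genes the count was 467, 1054 with array weights, 429 without a filter, 147 in the smaller table, 269 without a trend, 25 with the covariate, and 84 to 596 without 1 library. The cause was not tested. Between luminal and basal tumors, 1 member was called in the reported fit, 0 without a filter or with luminal tumors and domains pooled, 2 (Jag1 and Hey1) with a pseudocount of 5 or with upper-quartile scaling, and from 0 to 4 without 1 library. Over all genes it was 338, 52 without a filter, 513 pooled, 389 with the pseudocount of 5, 314 with upper-quartile scaling, and from 3 (without CT126 or CT132) to 896 (without CT140). In the other 3 comparisons 0 members were called under every alternative run. Over all genes, luminal domain against basal tumor had 377 calls, 52 to 425 under alternatives with the same libraries or the table of 8, and 0 (without CT128 or CT143) to 518 (without CT113) without 1 library. The domains had 0 to 20, the latter without a trend, and luminal domain against luminal tumor 0 to 1.

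Signs turned only for values that were not called. At 4 days Notch2 was 0.064 with array weights and 0.036 in the smaller table, where Hey1 was -0.35 and Nrarp 0.070, and with the Y-linked covariate Notch1 was -0.47 and Notch3 -0.012. Between luminal and basal tumors Hes1 was -0.11 with quantile normalization and -0.072 with upper-quartile scaling, and Nrarp 0.016 with the groups pooled. Between domains Hes1 was 0.0012 with array weights, 0.12 with quantile normalization and 0.091 with upper-quartile scaling, Nrarp 0.067 with array weights, and Jag2 0.018 and 0.083 with the same pair of scalings. Between luminal domain and luminal tumor Notch2 was -0.29 with array weights.

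Without 1 library, signs turned at 4 days for Notch1 (-0.028 to 0.32), Notch2 (-0.11 to 0.061) and Nrarp (-0.46 to 0.050), and between luminal and basal tumors for Hes1 (-0.39 to 0.52) and Nrarp (-0.86 to 0.12). Between luminal domain and basal tumor they turned for Dll1 (-1.33 to 1.41), Hes1 (-0.32 to 0.13), Jag2 (-0.16 to 0.56), Notch3 (-0.76 to 0.11) and Nrarp (-0.30 to 0.67). Between domains they turned for Dll1 (-0.057 to 1.00), Hes1 (-0.22 to 0.24), Jag1 (-0.12 to 0.24), Jag2 (-0.24 to 0.10), Notch3 (-0.31 to 0.13) and Nrarp (-0.72 to 0.39), and between luminal domain and luminal tumor for Hes1 (-0.59 to 0.31), Notch1 (-0.32 to 1.56) and Notch2 (-0.85 to 0.68). No paired analysis was possible because the columns carry no replicate numbers, and no source used here matches a luminal domain to a basal-like domain of its lesion. DESeq2 and edgeR were not run, since whole reads could not be recovered. With 2 or 3 regions a group, the tumor comparisons can miss changes of several units on the log2 scale.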
